A study of Rattus norvegicus with 6 samples.

Results

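The genes described here are 39 interferon-induced and class I antigen presentation genes of the rat. They were taken by name, by role, and each was measured by all probe sets on the array whose single annotated symbol is that gene. In all, 38 of the 39 had a probe set on at least 1 array type, out of 12137 genes measured in the series. The U34A arrays held 19 of them (27 probe sets) and the larger RAE2.0 arrays held 38 (50 probe sets), so 19 genes were on both types and 19 on RAE2.0 only. Xaf1, an apoptosis-promoting interferon target, was on neither.

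Interferons are cytokines that act on glia through receptors that most cells carry, and type I interferons are released by cells that sense viral nucleic acid. Type I interferon activates a complex that includes STAT2 and IRF9 and binds a DNA element called the interferon-stimulated response element, and interferon gamma acts through DNA elements called gamma-activated sites. The induced genes block viral replication or serve the class I pathway, in which the immunoproteasome cuts proteins into peptides, the transporter TAP carries these into the endoplasmic reticulum, and beta-2-microglobulin pairs with the class I heavy chain that displays them.

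Total RNA of 3 populations of olfactory ensheathing cells (OECs), the glia around olfactory axons, was hybridised to Affymetrix expression arrays. TEG3 is a clonal line, thus 1 clone, made by transfecting OECs of rats at postnatal day 60 with a plasmid for the SV40 large T antigen. OEC Lp is a long-term primary culture of more than 50 population doublings, and OEC Ep a short-term one grown for 1 week with under 3 doublings. Both primary cultures came from the olfactory nerve layer of Wistar rats at postnatal day 21, and a purity above 90% was stated for each. All cells were grown in DMEM with 3% fetal bovine serum, 20 µg/ml bovine pituitary extract and 2 µM forskolin, and no interferon or virus is named in the labels. For each population 2 RNA pools of 3 cultures were made, and each population has 1 U34A and 1 RAE2.0 array. It is not stated which pool each array received or whether both types carried the same RNA, so the array types are given apart.

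Values are MAS5 signals on a linear scale, a unit of probe brightness that is comparable between arrays of a type but not between genes or types. Signals under a floor, 128 on U34A and 168 on RAE2.0, were set to it, and a ratio against the floor is a bound written "at least". All 19 and 38 genes had a probe set above the floor on at least 1 array. Between 59.2 and 61.6% of probe sets on U34A and between 59.1 and 61.8% on RAE2.0 were above the floor. With 1 array per population on a type there is no replicate error within a type. Most defining OEC markers were far higher in OEC Ep: 8 of 11 on both array types passed limma as lower in TEG3 than in OEC Ep and 8 of 11 as lower in OEC Lp, against 4.34% and 6.13% of all genes called in either direction. S100b, a glial calcium-binding protein, had a signal of 132 in TEG3, 129 in OEC Lp and 6119 in OEC Ep on U34A, and was at the floor in TEG3 and OEC Lp against 40365 in OEC Ep on RAE2.0. Ngfr, Foxd3 and Gap43 did not pass. On U34A, Ngfr was 3621 in TEG3, 2569 in OEC Lp and 12716 in OEC Ep. Foxd3 was 629.9 in TEG3, 1491 in OEC Lp and 979.97 in OEC Ep on that type. Gap43 was 242, 803 and 1574 in the same order. On RAE2.0, Ngfr was at the floor in TEG3 and OEC Lp against 12522 in OEC Ep. Foxd3 was at the floor in both against 323 in OEC Ep, and Gap43 was 216 in TEG3, 374 in OEC Lp and 483 in OEC Ep. Macrophage markers were also high in OEC Ep. Their summed signal was 1859 in TEG3, 1749 in OEC Lp and 27665 in OEC Ep over 10 genes on U34A, and 4366, 6064 and 73989.5 over 19 genes on RAE2.0. In such bulk samples, fewer cells of a type and less RNA per cell cannot be told apart.

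The response element is shown because it is the feature by which these genes are known to be controlled together. RefSeq start sites (build GRCr8) were available for 31 of the 39 genes, as windows of 250 bases before to 50 bases after the start. The core of the response element, GAAA followed after any 2 bases by GAAA, was searched on both strands and found in 22 of the 31 windows (71.0%), against 1312 of 33469 windows of all genes (3.92%). It stood in 10 of 13 windows of antiviral effectors, in all 4 of the peptide loading genes, in all 3 of the GTPases, in 3 of 5 of the immunoproteasome group and in 1 of 5 of the transcription factors. No window matched for Mx1, Oasl, Ifi35, Irf1, Irf8, Irf9, Stat2, Psmb9 and Psme1, and Mx2, Isg15, Ifit1, Ifit2, Ifitm1, Usp18, Adar and Dhx58 were not in the table. Psmb9 starts beside Tap1 on the opposite strand. The match of Tap1 began 345 bases before the Psmb9 start, beyond the 250 bases searched for Psmb9. The letters TTCNNNGAA, a gamma-activated site, which reads the same on both strands, stood in 9 of 31 windows (29.0%), against 2970 of all 33469 (8.87%). These 9 were Oas1a, Ifitm3, Bst2, Irf1, Irf8, Irf9, Igtp, Irgm and Psmb8. A match of letters is a description and shows no binding. The stretches below are from a selection of the genes with the core of the response element. They are written 5′ to 3′ on the strand of the gene, with that core or its reverse complement in capitals. In Oas1a a pair of matches overlap, and Psmb10 is shown because it holds a pair apart from each other.
Rsad2 (chr6:48788233-48788292, minus strand): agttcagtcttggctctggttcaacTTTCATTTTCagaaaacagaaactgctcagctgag
Oas1a (chr12:41330400-41330465, plus strand): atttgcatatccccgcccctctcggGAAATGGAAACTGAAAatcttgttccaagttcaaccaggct
Ifitm3 (chr1:205541768-205541827, minus strand): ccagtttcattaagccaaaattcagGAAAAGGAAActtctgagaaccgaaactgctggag
Irf7 (chr1:205800058-205800117, minus strand): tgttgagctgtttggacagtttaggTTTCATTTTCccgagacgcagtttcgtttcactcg
Gbp2 (chr2:234005671-234005726, plus strand): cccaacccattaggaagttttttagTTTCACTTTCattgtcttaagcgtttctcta
Psmb10 (chr19:50743293-50743390, minus strand): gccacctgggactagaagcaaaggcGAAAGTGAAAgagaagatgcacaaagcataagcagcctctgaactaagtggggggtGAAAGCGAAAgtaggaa
Psme2 (chr15:33052770-33052829, minus strand): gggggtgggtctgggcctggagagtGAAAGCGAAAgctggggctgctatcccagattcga
Tap1 (chr20:4668630-4668689, minus strand): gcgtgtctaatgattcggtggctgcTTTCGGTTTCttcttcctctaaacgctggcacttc
Tap2 (chr20:4652303-4652362, minus strand): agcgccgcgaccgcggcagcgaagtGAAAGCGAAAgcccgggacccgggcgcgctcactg
B2m (chr3:129549155-129549214, plus strand): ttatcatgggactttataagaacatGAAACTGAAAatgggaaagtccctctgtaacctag

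Several of these genes are neighbours in the RefSeq gene order of GRCr8. On chromosome 20, Tap2, Psmb8, Tap1 and Psmb9 followed each other with 0 protein-coding genes between them. Ifitm1 and Ifitm3, and Ifit2 and Ifit3, were also adjacent on chromosome 1, while 1 gene lay between Mx1 and Mx2 on chromosome 11 and between Psme1 and Psme2 on chromosome 15.

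On the U34A arrays the long-term culture stood apart. OEC Lp had the highest signal of the 3 populations for 16 of the 19 genes, against 33.1% of all genes of that type, while TEG3 was highest for 2 (background 33.2%) and OEC Ep for 1 (33.8%). Markers of fibroblasts and meningeal cells also differed in OEC Lp. Of 9 on both types, 2 rose and 2 fell relative to OEC Ep by limma (all genes called in either direction 6.13%). Col3a1, a fibrillar collagen chain, was 7841 in TEG3, 39993 in OEC Lp and 6684 in OEC Ep on U34A (adjusted p = 0.0234 by limma for OEC Lp over OEC Ep), and Prrx1, a mesenchymal transcription factor, also rose (0.0316). Thy1 and Postn fell. On RAE2.0 only, Ogn was 187 in TEG3, 13225 in OEC Lp and 241 in OEC Ep. The summed signal of the list was 41962 in TEG3, 79932 in OEC Lp and 82761 in OEC Ep on U34A (9 genes), and 47359 in TEG3, 149659 in OEC Lp and 179683 in OEC Ep on RAE2.0 (13 genes). Its part in the interferon gene signals was not tested. Among the interferon and class I genes on RAE2.0, OEC Lp did not stand apart: TEG3 was highest for 11 of 38 genes (background 38.7%), OEC Lp for 12 (34.1%) and OEC Ep for 15 (27.2%).

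**Figure D1:**
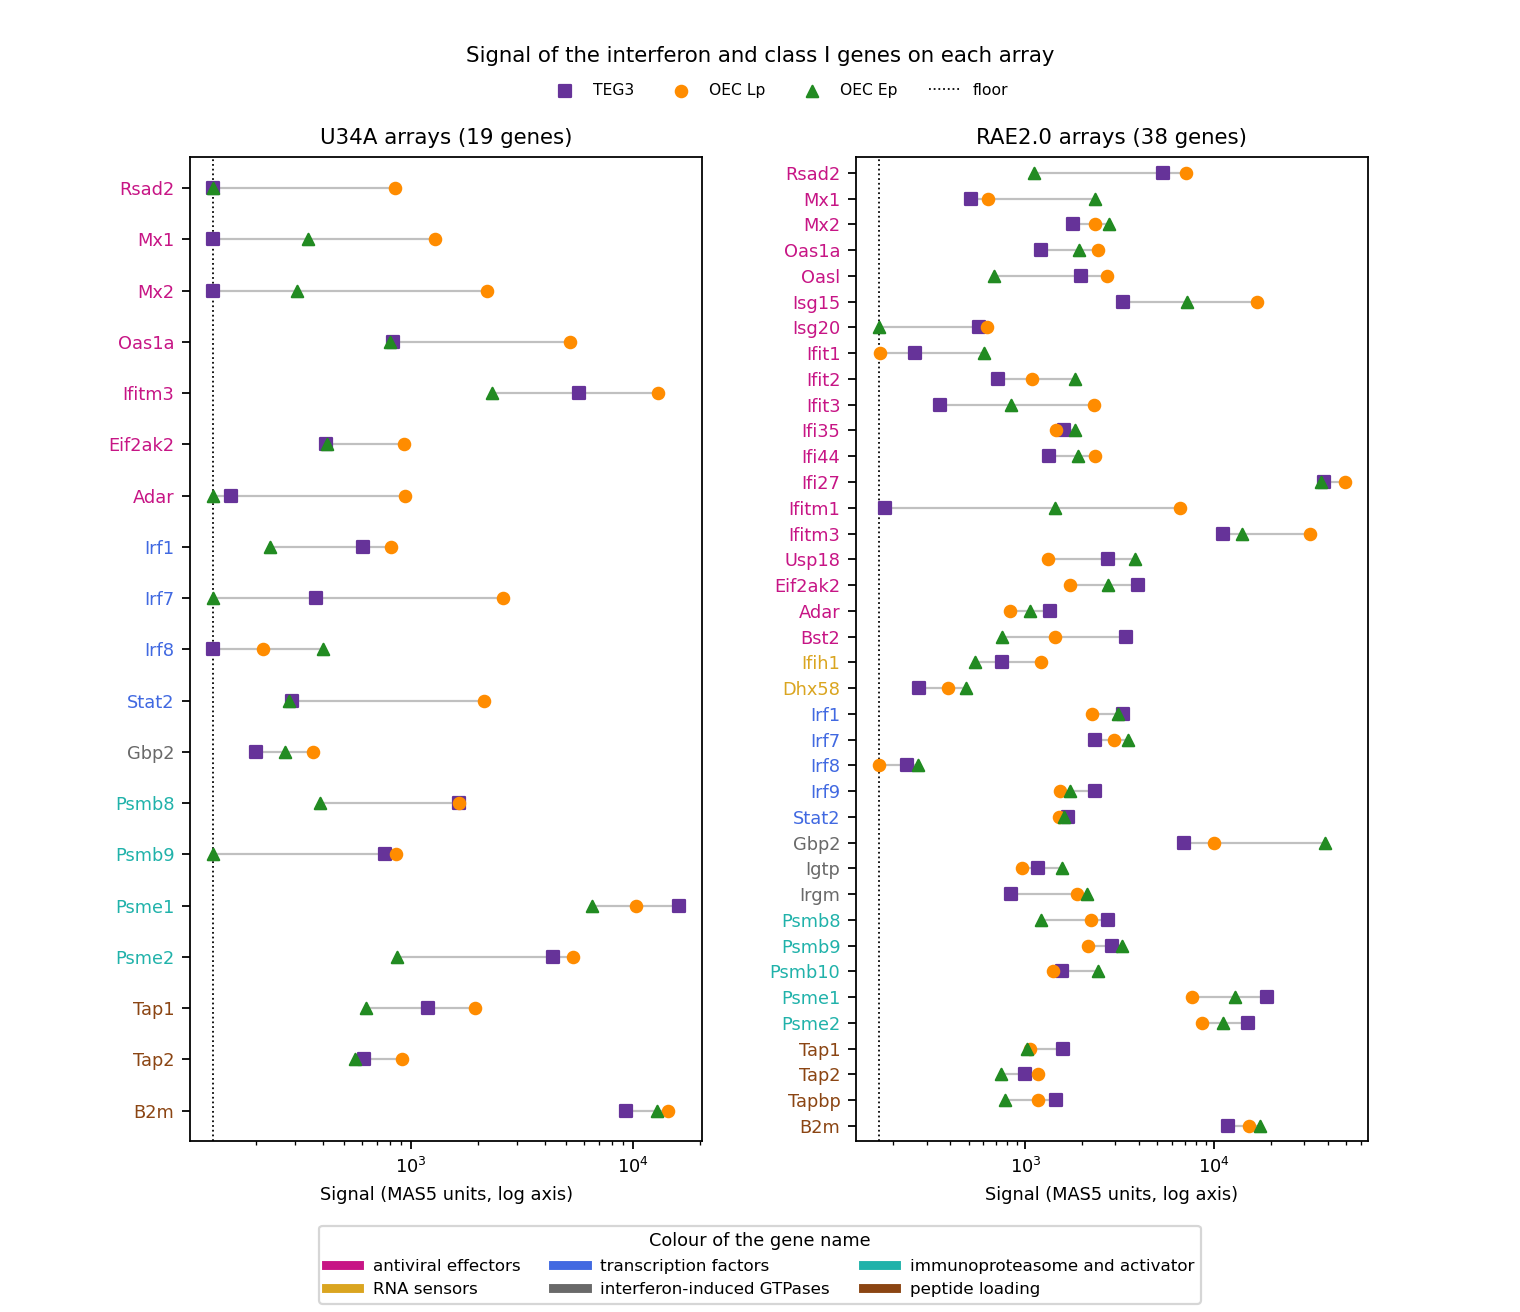
Signal of each gene on each array (MAS5 units, log axis), with U34A on the left and RAE2.0 on the right; squares are TEG3, circles OEC Lp and triangles OEC Ep, 1 array each, and the dotted line is the floor. On U34A the circle lies rightmost for 16 of 19 genes, and on RAE2.0 for 12 of 38.

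The antiviral effectors are taken first, beginning with the 7 that both array types measured. Rsad2, which encodes viperin, an enzyme that makes a chain-terminating nucleotide, was at the floor in TEG3, 844 in OEC Lp and at the floor in OEC Ep on U34A. On RAE2.0 it was 5371 in TEG3, 7128 in OEC Lp and 1114 in OEC Ep. OEC Lp was thus above OEC Ep on both types, by at least 6.57-fold on U34A and 6.40-fold on RAE2.0, whereas TEG3 was at the floor on the first type and 4.82-fold above OEC Ep on the second.

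Mx1, a dynamin-like GTPase that traps viral ribonucleoproteins, was at the floor in TEG3, 1275 in OEC Lp and 343 in OEC Ep on U34A. On RAE2.0 its signal was 517 in TEG3, 635 in OEC Lp and 2335 in OEC Ep. The order of OEC Lp and OEC Ep was opposite on the array types, with OEC Lp 3.72-fold above OEC Ep on U34A and 3.68-fold below it on RAE2.0. TEG3 lay below OEC Ep on both, by at least 2.67-fold and by 4.52-fold. Mx2, its paralogue, was at the floor in TEG3, 2189 in OEC Lp and 305 in OEC Ep on U34A, against 1785, 2348 and 2762 in TEG3, OEC Lp and OEC Ep on RAE2.0. The ratio of TEG3 to OEC Lp for Mx2 was thus a signal at least 17.1-fold lower on U34A and 1.32-fold lower on RAE2.0. Because the Mx genes are paralogues, shared hybridisation cannot be told apart from expression of either.

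Oas1a, an oligoadenylate synthetase that activates RNase L, had signals of 829 in TEG3, 5177 in OEC Lp and 804 in OEC Ep on U34A. On RAE2.0 it had 1207 in TEG3, 2416 in OEC Lp and 1914 in OEC Ep. OEC Lp was highest on both types, 6.44-fold above OEC Ep on U34A but 1.26-fold on RAE2.0. Its probe sets may detect more than 1 of the closely related Oas1 genes. Ifitm3, a membrane protein that blocks viral entry, was 5683 in TEG3, 12981 in OEC Lp and 2315 in OEC Ep on U34A, and 11070.2 in TEG3, 32070.4 in OEC Lp and 14076 in OEC Ep on RAE2.0. OEC Lp was highest on both, at 5.61-fold and 2.28-fold over OEC Ep, and TEG3 was 2.28-fold and 2.90-fold below OEC Lp. On RAE2.0 its relative Ifitm2 had the same order, with 8722 in TEG3, 25729 in OEC Lp and 11687 in OEC Ep. Shared hybridisation cannot be told apart from expression of either Ifitm gene.

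Eif2ak2, the kinase PKR that halts translation, had 414 in TEG3, 925 in OEC Lp and 419 in OEC Ep on U34A, and 3951 in TEG3, 1713 in OEC Lp and 2736 in OEC Ep on RAE2.0. OEC Lp was the highest array on the first type and the lowest on the second. Adar, which edits adenosine to inosine in double-stranded RNA, behaved alike: it was 155 in TEG3, 941 in OEC Lp and at the floor in OEC Ep on U34A, against 1356, 829 and 1062 in TEG3, OEC Lp and OEC Ep on RAE2.0. Its 3 RAE2.0 probe sets gave OEC Lp over OEC Ep ratios between 0.531 and 1.11.

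In all 7 antiviral effectors on U34A, TEG3 was at least 2-fold below OEC Lp and OEC Lp at least 2-fold above OEC Ep, with median log2 ratios of -2.64 and 2.69, against 11.6% and 11% of all genes past 2-fold in these directions. Among the 19 antiviral effectors on RAE2.0, 5 were at least 2-fold lower and 3 higher in TEG3 than in OEC Lp (median log2 ratio -0.40; all genes 8.66% and 9.63%), while in OEC Lp against OEC Ep 7 were higher and 3 lower (median 0.34; all genes 10.4% each way).

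The 12 antiviral effectors on RAE2.0 only had no second array. Ifitm1, a close relative and neighbour of Ifitm3, had the widest range: its signal was 180.00 in TEG3, 6610.1 in OEC Lp and 1439.95 in OEC Ep. TEG3 was thus 36.7-fold below OEC Lp, with a log2 ratio of -3.00 to OEC Ep. Isg15, a ubiquitin-like modifier, was 3308 in TEG3, 16841 in OEC Lp and 7152 in OEC Ep, and Ifit3, which binds viral RNA in complex with Ifit1, was 353 in TEG3, 2319 in OEC Lp and 844 in OEC Ep. These 3 genes share an order, with OEC Lp highest and TEG3 lowest.

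Ifit1 and Ifit2, RNA-binding relatives of Ifit3, did not share that order. Ifit1 was 261 in TEG3, 170.00 in OEC Lp and 606 in OEC Ep, and Ifit2 was 716 in TEG3, 1086 in OEC Lp and 1839 in OEC Ep. Both were highest in OEC Ep. Oasl, an oligoadenylate synthetase-like protein, was 1965 in TEG3, 2695 in OEC Lp and 679.98 in OEC Ep. Isg20, an exonuclease, was 565 in TEG3, 624 in OEC Lp and at the floor in OEC Ep, so that TEG3 and OEC Lp were both at least 3.36-fold above OEC Ep for that gene, and 2.89-fold or more for Oasl.

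Bst2, the tetherin that holds budding virions at the cell surface, was 3392 in TEG3, 1431 in OEC Lp and 753 in OEC Ep. Usp18, which removes Isg15 from proteins and damps the type I receptor, was 2734 in TEG3, 1320.02 in OEC Lp and 3819 in OEC Ep. Bst2 was thus highest in TEG3, at 4.50-fold over OEC Ep, and Usp18 lowest in OEC Lp, at 2.89-fold below OEC Ep. The remaining 3 varied by under 2-fold. Ifi27, a mitochondrial protein with very high signals, was 38372 in TEG3, 49119.6 in OEC Lp and 36883 in OEC Ep. Ifi35 was 1611 in TEG3, 1456 in OEC Lp and 1842 in OEC Ep, and Ifi44 was 1338 in TEG3, 2348 in OEC Lp and 1903 in OEC Ep.

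Among the cytosolic RNA sensors, on RAE2.0 only, Ifih1, which encodes MDA5, was 753 in TEG3, 1204 in OEC Lp and 538 in OEC Ep. Dhx58, which encodes the regulator LGP2, was 274 in TEG3, 388 in OEC Lp and 484 in OEC Ep. In OEC Lp, Ifih1 was 2.24-fold above OEC Ep, and Dhx58 was within 2-fold throughout.

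Among the transcription factors was the widest gap between the array types of the 19 genes, in Irf7. Irf7, the regulator that amplifies type I interferon, was 374 in TEG3, 2582 in OEC Lp and at the floor in OEC Ep on U34A, and 2341 in TEG3, 2945 in OEC Lp and 3497 in OEC Ep on RAE2.0. OEC Lp was at least 20.1-fold above OEC Ep on U34A, where both Irf7 probe sets had the same order, and 1.19-fold below it on RAE2.0. Stat2, a subunit of the factor that binds the response element, was 291 in TEG3, 2130.4 in OEC Lp and 281 in OEC Ep on U34A. On RAE2.0 it was nearly level, with 1679 in TEG3, 1512 in OEC Lp and 1608 in OEC Ep.

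Irf1, which also drives class I genes, was 607 in TEG3, 809.7 in OEC Lp and 231 in OEC Ep on U34A, and 3294 in TEG3, 2242 in OEC Lp and 3089 in OEC Ep on RAE2.0. OEC Ep was lowest on the first type only. Irf9, the DNA-binding subunit beside Stat2, was on RAE2.0 only, with 2341 in TEG3, 1521 in OEC Lp and 1723 in OEC Ep. Irf8, a factor of macrophages and other myeloid cells, was at the floor in TEG3, 214 in OEC Lp and 402 in OEC Ep on U34A, and 235 in TEG3, at the floor in OEC Lp and 269.99 in OEC Ep on RAE2.0. Its signal was highest in OEC Ep on both types, as were the macrophage markers above, whose part in its signal was not tested. On RAE2.0 all 5 factors were within 2-fold in all 3 comparisons.

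The interferon-induced GTPases act against intracellular pathogens. Gbp2, a guanylate-binding protein, was 201 in TEG3, 363 in OEC Lp and 269.99 in OEC Ep on U34A, and 6895 in TEG3, 10002 in OEC Lp and 38851 in OEC Ep on RAE2.0. OEC Ep was thus 5.63-fold above TEG3 and 3.88-fold above OEC Lp on RAE2.0, whereas on U34A the arrays were within 2-fold. Igtp was 1165 in TEG3, 960.4 in OEC Lp and 1561 in OEC Ep on RAE2.0, and Irgm was 836 in TEG3, 1869 in OEC Lp and 2129 in OEC Ep. All 3 GTPases were highest in OEC Ep on RAE2.0. On U34A, Gbp2 was highest in OEC Lp, at 1.34-fold over OEC Ep. The summed macrophage signal was highest in OEC Ep on both types. The part of macrophages in the GTPase signals was not tested.

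The immunoproteasome and its activator had another pattern on U34A: TEG3 and OEC Lp lay within 2-fold of each other and above OEC Ep. Psmb8, a catalytic subunit that replaces one of the constitutive proteasome, was 1646 in TEG3, 1641 in OEC Lp and 388 in OEC Ep on U34A, and 2736 in TEG3, 2226 in OEC Lp and 1206 in OEC Ep on RAE2.0. TEG3 exceeded OEC Ep by 4.24-fold and 2.27-fold, and OEC Lp exceeded it by 4.23-fold and 1.85-fold, so the order against OEC Ep was the same on both types.

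Psmb9, another catalytic subunit, was 765 in TEG3, 855 in OEC Lp and at the floor in OEC Ep on U34A, but 2877 in TEG3, 2137 in OEC Lp and 3265 in OEC Ep on RAE2.0. Psme2, the beta subunit of the PA28 activator that opens the proteasome, was 4373 in TEG3, 5335 in OEC Lp and 868 in OEC Ep on U34A, and 15032 in TEG3, 8591 in OEC Lp and 11112 in OEC Ep on RAE2.0. For both genes OEC Ep was clearly lowest on U34A and not lowest on RAE2.0. Psme1, the alpha subunit of PA28, was highest in TEG3 on both, with 16085 in TEG3, 10296 in OEC Lp and 6511 in OEC Ep on U34A and 19121, 7623 and 12813 in TEG3, OEC Lp and OEC Ep on RAE2.0. Psmb10, the third inducible catalytic subunit, was on RAE2.0 only, with 1557 in TEG3, 1398 in OEC Lp and 2431 in OEC Ep.

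On U34A all 4 genes of this group were at least 2-fold higher in TEG3 than in OEC Ep (median log2 ratio 2.21, all genes 10.5%), 3 of 4 were so in OEC Lp (2.35, all genes 11%), and none was 2-fold apart between TEG3 and OEC Lp (-0.08). On RAE2.0, 1 of 5 was at least 2-fold higher in TEG3 than in OEC Ep (median 0.44, all genes 12.1%) and 0 of 5 in OEC Lp (-0.61, all genes 10.4%). The list of constitutive proteasome genes, which holds subunits and Psme4, the activator PA200, was measured beside them. On U34A 2 of 12 were 2-fold higher and 1 lower in TEG3 than in OEC Ep (median 0.47, all genes 10.5% and 12.9%). The lower one was Psme4, with 304 in TEG3 and 1151 in OEC Ep. Against OEC Lp, 0 of 12 were 2-fold higher and 2 lower in TEG3 (0.21, all genes 8.08% and 11.6%). Between OEC Lp and OEC Ep, 0 of 12 were 2-fold apart (0.39). On RAE2.0, 0 of 14 genes of the list were 2-fold apart in any comparison.

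The peptide loading genes varied less. Tap1, a subunit of the peptide transporter, was 1192 in TEG3, 1931 in OEC Lp and 624 in OEC Ep on U34A and 1574, 1063 and 1021 in TEG3, OEC Lp and OEC Ep on RAE2.0. Its U34A probe sets, made from the same sequence record, differed: OEC Lp was 1.69-fold above OEC Ep by one and 5.67-fold by the other. Tap2, its partner, was 612 in TEG3, 913 in OEC Lp and 561 in OEC Ep on U34A and 999, 1161 and 746 in TEG3, OEC Lp and OEC Ep on RAE2.0. OEC Lp was highest and OEC Ep lowest for Tap2 on both types, within 2-fold.

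Tapbp, the tapasin that bridges the transporter and class I, was 1455 in TEG3, 1173 in OEC Lp and 784 in OEC Ep on RAE2.0. B2m, the class I light chain, was 9258 in TEG3, 14366 in OEC Lp and 12861 in OEC Ep on U34A and 11816, 15256 and 17470.4 in TEG3, OEC Lp and OEC Ep on RAE2.0. TEG3 had the lowest B2m signal on both types, 1.55-fold and 1.29-fold below OEC Lp. No peptide loading gene was 2-fold apart on RAE2.0, and on U34A only Tap1 was, between OEC Lp and OEC Ep.

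Set out by comparison, the numbers of genes past 2-fold were as follows. Between TEG3 and OEC Lp, 0 of 19 genes were at least 2-fold higher in TEG3 on U34A (background 8.08%) and 9 were lower (11.6%), with a median log2 ratio of -0.85 against 0.00 for all genes. On RAE2.0, 4 of 38 were higher (9.63%) and 6 lower (8.66%), with a median of -0.18 against 0.00. Between TEG3 and OEC Ep, 7 of 19 were higher (10.5%) and 3 lower (12.9%) on U34A, with a median of 0.13 against 0.00, and 5 of 38 were higher (12.1%) and 8 lower (10.6%) on RAE2.0, with a median of -0.20 against 0.11. Between OEC Lp and OEC Ep, 14 of 19 were higher in OEC Lp (background 11%) and 0 lower (10.1%) on U34A, with a median of 2.08 against 0.00. On RAE2.0, 8 of 38 were higher (10.4%) and 4 lower (10.4%), with a median of -0.19 against 0.09. These comparisons share arrays and are not independent of each other.

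**Figure D2:**
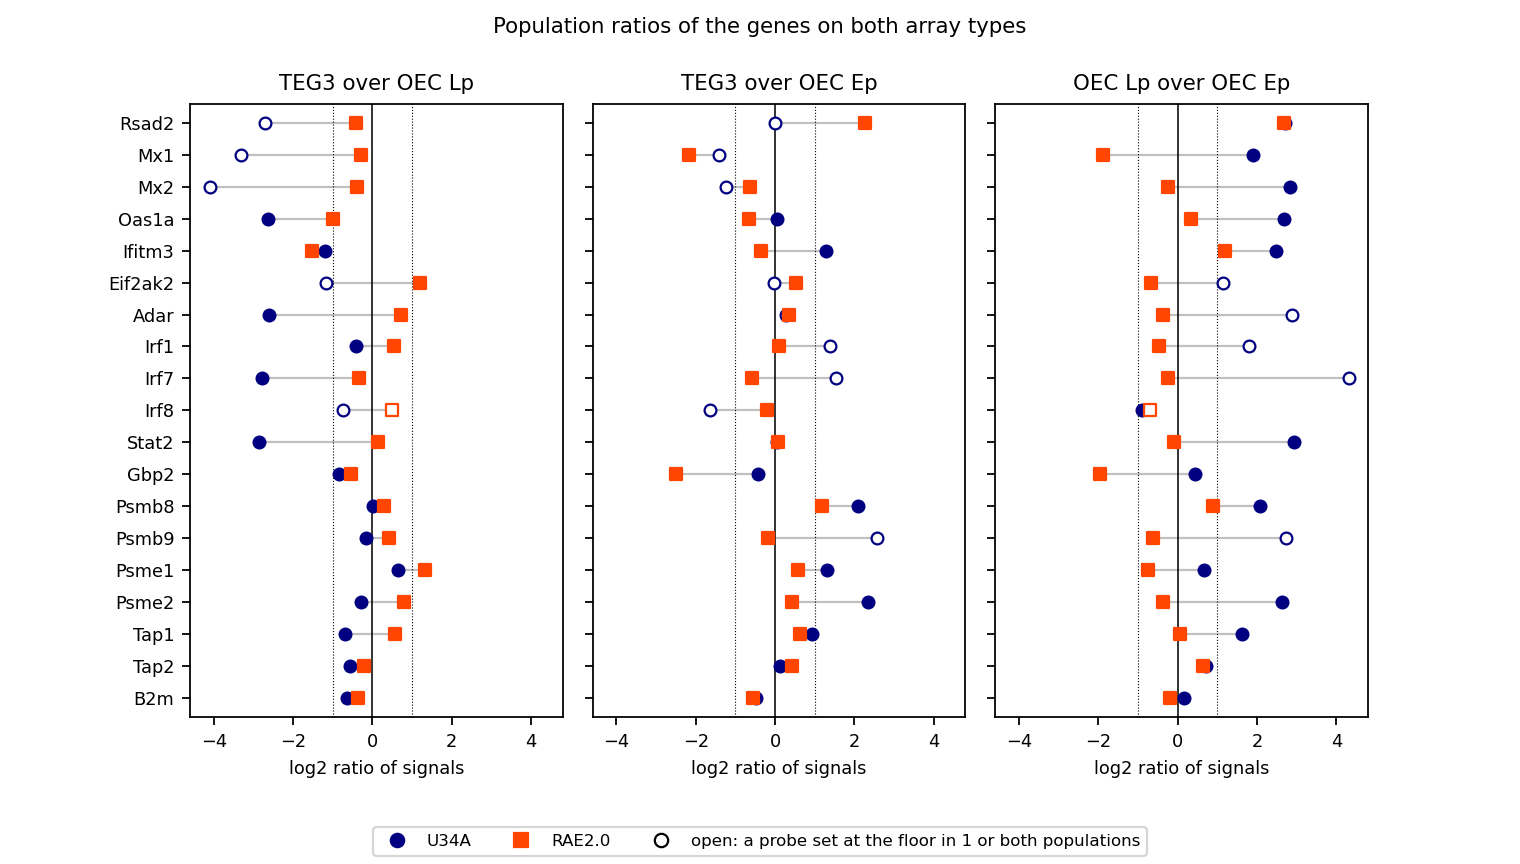
Log2 ratio of signals for the 19 genes on both types, for TEG3 over OEC Lp, TEG3 over OEC Ep and OEC Lp over OEC Ep; blue circles are U34A, orange squares RAE2.0, and open symbols mark a gene with a probe set at the floor, and dotted lines a 2-fold ratio. In the panel of OEC Lp over OEC Ep, the blue circle lies to the right of the orange square for 18 of 19 genes.

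The 19 genes on both types allow the array types to be set side by side. For OEC Lp over OEC Ep, 18 of the 19 were above 1 on U34A and 6 on RAE2.0, and the sign was the same on both types for 7 of 19 (36.8%), against 62.4% of all 3131 genes on both types. The U34A ratio exceeded the RAE2.0 ratio in 18 of 19 genes, against 51.0% of all genes, by a median of 2.27 on the log2 scale, against 0.02. For TEG3 over OEC Lp the U34A ratio was the higher one for 1 of 19 (all genes 46.8%, median difference -1.22 against -0.04), and for TEG3 over OEC Ep for 12 of 19 (48.5%, 0.71 against -0.01). Only 2 genes, Rsad2 and Ifitm3, had OEC Lp at least 2-fold above OEC Ep on both types, as did 4.09% of all genes on both. Between TEG3 and OEC Ep, Psmb8 was 2-fold higher (all genes 3.96%) and Mx1 2-fold lower in TEG3 on both (all genes 8.14%, more than 1 in 19). Between TEG3 and OEC Lp, 2 genes (all genes 4.92%) were at least 2-fold lower in TEG3 on both, Oas1a and Ifitm3, the RAE2.0 value of Oas1a lying at 2.00-fold.

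The gap between types was also present where the probe sets of both types were made from the same sequence record. For Stat2 from such probe sets, OEC Lp over OEC Ep was 7.58 on U34A and 0.902 on RAE2.0. For Mx1 it was 3.72 and 0.272, for Oas1a 6.44 and 1.26, and for Tap1 1.69 and 5.67 by the U34A probe sets and 1.04 by the RAE2.0 one. The signal of GAPDH probe sets for the 3′ end over those for the 5′ end also differed between the arrays. This ratio was 1.54 in TEG3, 1.52 in OEC Lp and 1.96 in OEC Ep on U34A, and 1.02, 0.981 and 1.02 on RAE2.0. Because the types have different probes, RNA quality and probe placement cannot be told apart in it between types. The part of RNA quality, and that of the RNA pool used for each array, was not tested.

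**Figure D3:**
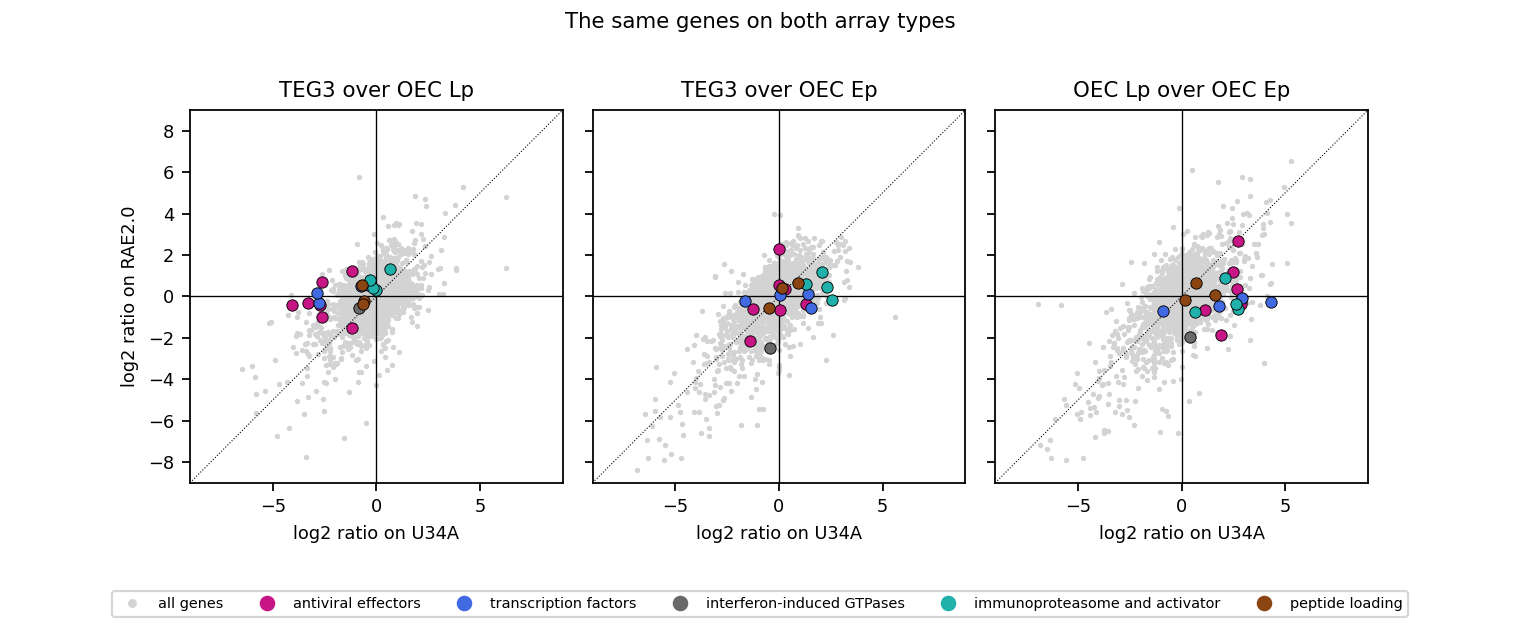
Log2 ratio on RAE2.0 (vertical axis) against log2 ratio on U34A (horizontal axis) for all 3131 genes on both types (grey) and the 19 interferon and class I genes (coloured by role), for the 3 comparisons. In the panel of OEC Lp over OEC Ep, 18 of the 19 coloured points lie below the diagonal.

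The test over both types used limma with array type as a term, so its error is the disagreement between the types. In this fit 0 of 19 genes passed an adjusted p of 0.05 in any comparison. Over all 3131 genes the share called was 1.21% between TEG3 and OEC Lp, 4.34% between TEG3 and OEC Ep and 6.13% between OEC Lp and OEC Ep. At an unadjusted p under 0.05, 3 of 19 (background 15.4%), 1 of 19 (21.7%) and 4 of 19 (19.5%) passed in these comparisons. Their shares were thus near or under the background. The p-values measure only the spread between these arrays, which may be technical.

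The lowest adjusted p in the limma fit belonged to Rsad2, whose log2 difference of OEC Lp over OEC Ep was 2.70 ± 0.63 (SE, 2 arrays per population, adjusted p = 0.0776). Psmb8 followed for TEG3 over OEC Ep, at 1.63 ± 0.39 (adjusted p = 0.0905 by limma), and had 1.48 ± 0.39 for OEC Lp over OEC Ep (adjusted p = 0.109). Ifitm3 had 1.84 ± 0.47 for OEC Lp over OEC Ep (limma, adjusted p = 0.0968) and -1.36 ± 0.47 for TEG3 over OEC Lp (adjusted p = 0.261). Oas1a had -1.82 ± 0.59 for TEG3 over OEC Lp, the lowest adjusted p of that comparison (0.237, limma). These differences therefore did not pass the test, and a p that misses it does not show that the populations were alike.

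Other genes of the same pathways were counted by list. Of 11 interferons and receptors, 4 were on U34A, with 2 above the floor, and 8 on RAE2.0, with 6 above it. Those above the floor were all receptor chains, and not every interferon of the list had a probe set. Ifnar1, a chain of the type I receptor, was 199 in TEG3, 311 in OEC Lp and 150.00 in OEC Ep on U34A and 544, 702 and 591 in TEG3, OEC Lp and OEC Ep on RAE2.0. Ifngr1, a chain of the interferon gamma receptor, was 228 in TEG3 and at the floor in OEC Lp and OEC Ep on U34A. On RAE2.0 it was 2722 in TEG3, 1863 in OEC Lp and 3833 in OEC Ep. In the JAK-STAT list, 1 of 5 genes on both types passed the test: Jak2, a receptor-associated kinase, rose in TEG3 relative to OEC Ep, by 1.84 ± 0.34 on the log2 scale (SE, limma adjusted p = 0.0489, all genes called 4.34%). That call passed in 4 of 15 alternatives, and not without the replicate block, with only the 4 arrays of the pair or with any array left out. Its signal was 463 in TEG3, 234 in OEC Lp and 148 in OEC Ep on U34A, and 2585 in TEG3, 1802 in OEC Lp and 629 in OEC Ep on RAE2.0. Of 13 genes of nucleic acid sensing, 7 were on RAE2.0. Of these, 1 was at least 2-fold higher and 1 lower in TEG3 than in OEC Ep (all genes 12.1% and 10.6%). The higher one was Sting1, the adaptor of cytosolic DNA sensing, on RAE2.0 only, with 1683 in TEG3, 543 in OEC Lp and 299.99 in OEC Ep. The lower one, Tlr7, was at the floor in TEG3 and OEC Lp against 727 in OEC Ep.

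Of 39 other interferon-induced genes, 6 were on U34A and only 4 of these above the floor. Of the 4, 3 were at least 2-fold lower in TEG3 than in OEC Lp (all genes 11.6%). In 3 of the 4, OEC Lp was at least 2-fold above OEC Ep (all genes 11%). On RAE2.0, 27 were present and 26 above the floor, of which 1 was at least 2-fold higher and 6 lower in TEG3 than in OEC Lp (median log2 ratio -0.51; all genes 9.63% and 8.66%). In OEC Lp against OEC Ep 5 were higher and 3 lower (0.42; all genes 10.4% each way). Cxcl10, a chemokine for T cells, was 392 in TEG3, 3753 in OEC Lp and 182 in OEC Ep on U34A and 4237, 7468 and 2511 in TEG3, OEC Lp and OEC Ep on RAE2.0. OEC Lp was highest for it on both types, 20.6-fold and 2.97-fold above OEC Ep (limma adjusted p = 0.0814). Gbp4, a relative of Gbp2 on RAE2.0 only, was 284 in TEG3, 297 in OEC Lp and 3877 in OEC Ep. It was thus highest in OEC Ep, as Gbp2 was on that type.

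The list of class I heavy chains holds RT1 genes, many of them close copies whose probe sets cannot be assigned to 1 gene with certainty, and distinct class I-like genes such as Cd1d1, Fcgrt, Mr1 and RT1-M3-1. On U34A, OEC Lp was at least 2-fold above OEC Ep for 2 of 7 and below it for 0 (median log2 ratio 0.82; all genes 11% and 10.1%), and 1 of 7 was lower in TEG3 than in OEC Lp (-0.69; all genes 11.6%). On RAE2.0, 6 of 12 were at least 2-fold higher in TEG3 than in OEC Lp and 0 lower (0.91; all genes 9.63% and 8.66%), while in OEC Lp against OEC Ep 1 was higher and 5 lower (-0.63; all genes 10.4% each way). The medians of OEC Lp over OEC Ep thus differed in sign between the array types, and single genes went against them. Of the 6 heavy chains on both types, 0 passed limma in any comparison, and at an unadjusted p under 0.05 it was 0 between TEG3 and OEC Lp and 1 in each comparison with OEC Ep (all genes 15.4, 21.7 and 19.5%). RT1-N3 was 697 in TEG3, 1208 in OEC Lp and at the floor in OEC Ep on U34A, against 1568, 623 and 463 in TEG3, OEC Lp and OEC Ep on RAE2.0. Of the loading chaperones above the floor, 4 on U34A and 5 on RAE2.0, such as Calr, 0 were 2-fold apart in any comparison.

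**Figure D4:**
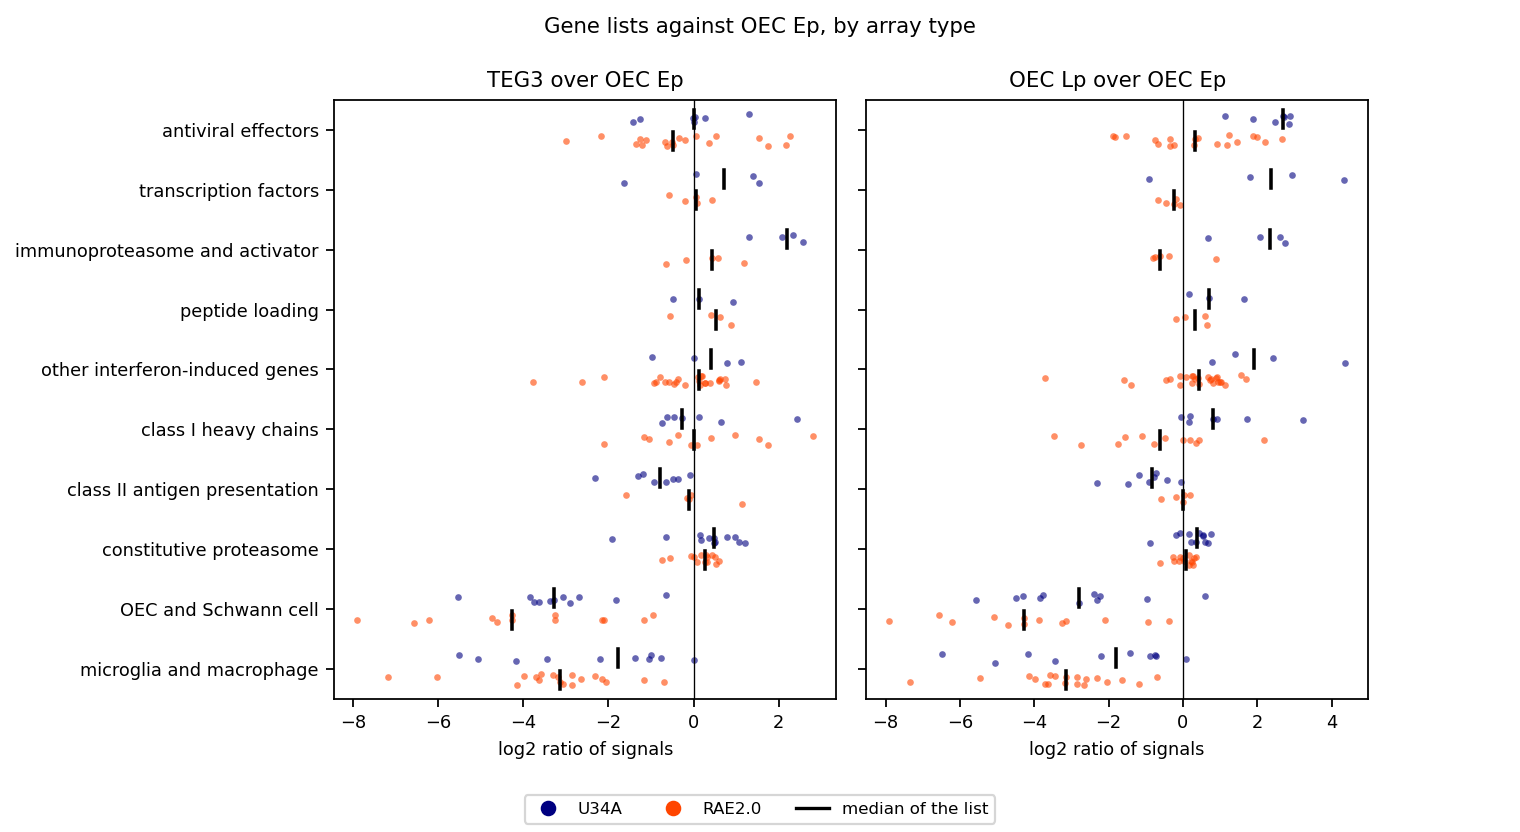
Log2 ratios against OEC Ep for TEG3 and for OEC Lp by gene list, with 1 dot per gene (blue U34A, orange RAE2.0) and a black line at the median of the list; the vertical scatter of dots is for display only. The antiviral effectors have a median of 2.69 in OEC Lp on U34A and of 0.34 on RAE2.0.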

How the data were processed

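The deposited intensity tables hold MAS5 signals, whole numbers on a linear scale, made by the authors with Microarray Suite 5.0, per the labels and the submitters' processing notes, with no detection calls in the tables. Arrays of a type were brought to a common 2% trimmed mean, and the 40th percentile of all signals of that type (128.4 on U34A, 168.0 on RAE2.0) served as a floor. The 59 and 57 control probe sets were dropped. Of 8799 and 31099 probe sets, 6360 and 22185 exceeded the floor on at least 1 of 3 arrays. Probe sets were named by the platform annotation where it gave 1 symbol (7006 and 20826), and not where it gave several (308 and 436) or none (1426 and 9780). Of the 39 genes' probe sets, 1 on U34A (Psme1) and 2 on RAE2.0 (Psme1, Tap1) stayed at the floor. Probe sets of a gene were averaged on the log2 scale, giving 3726 and 11542 genes, 3131 on both types.

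limma 3.58.1 (R 4.3.3) was run on those 3131 genes, with terms for population and array type, and p-values were adjusted by Benjamini-Hochberg at 0.05. The array type is also the replicate number and so the replicate block. There were 2 residual and 3.56 prior degrees of freedom. When tested on simulated data of OEC Lp and OEC Ep (3131 genes, 200 changed, 10 runs), the fit recovered 56% of genes changed 4-fold and 77% changed 8-fold, and 3.82% of its calls were false. The simulated noise was independent between genes. In the data, the U34A ratio of OEC Lp over OEC Ep exceeded the RAE2.0 ratio in 18 of the 19 genes. The simulated rates therefore need not hold for these genes. The number of arrays limits the precision. The alternatives changed the floor, filter, scaling, probe set choice, arrays in the fit and replicate block.

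The genes and lists were chosen with earlier results of these data known. The 38 measured genes were all named with their values. Other pathway genes were named where they passed the test or as the largest ratios on RAE2.0, and cell type markers among the highest in OEC Ep. Ifnar1, Ifngr1, Tlr7, Cxcl10, Ifitm2, RT1-N3, RT1-DMb, Foxd3, Gap43, Psme4, Col3a1, Prrx1, Thy1, Postn, Fbln2, Ogn and Calr were chosen after their values were seen. Sequences and gene order are from RefSeq, GRCr8.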

Additional observations from a re-analysis of the deposited data

How the results depend on the processing

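The 0 calls among the 19 genes on both types stayed at 0 in all 3 comparisons under all 15 alternatives, where the lowest adjusted p of any gene was 0.055 (limma). The number of all genes called, 38 between TEG3 and OEC Lp, 136 between TEG3 and OEC Ep and 192 between OEC Lp and OEC Ep, was less stable. In that order of comparisons it was 0, 11 and 66 with no floor, 0, 1 and 1 with no filter on dim probe sets, and 0, 0 and 41 with only the 4 arrays of the compared pair. It was 0, 0 and 0 with no replicate block, against 38, 136 and 192 with it. With probe sets above the floor on all arrays it was 86 between TEG3 and OEC Ep and 77 between OEC Lp and OEC Ep, of 2093 genes left, and with the floor at the 20th percentile it was 4 between TEG3 and OEC Lp. Leaving out each array in turn gave 0 to 0, 0 to 0 and 0 to 41 calls. The median log2 ratio of TEG3 over OEC Ep on U34A was 0.53 over the 12 genes with probe sets above the floor on all arrays, against 0.13. Of 57 gene differences, 6 turned under another setting. Eif2ak2 had -0.80 with no floor, -0.43 with the floor at the 20th percentile and -0.11 with the all-array filter or the brightest probe set for TEG3 over OEC Lp, and -0.056 with no floor for TEG3 over OEC Ep. Tap1 had 0.040 for TEG3 over OEC Lp with the brightest probe set. For OEC Lp over OEC Ep, Mx1 had -0.018 and Psme1 0.0095 with quantile normalization, Psme1 had 0.14 with the lower floor, 0.033 with no filter and 0.15 with the brightest probe set, and B2m had 0.19 with that same setting. The cause of these turns was not tested. In 31 of the 57 the sign turned when 1 array was left out, where a single type then gives much of the comparison. For TEG3 over OEC Lp, leaving out each array in turn gave log2 differences of -1.02 to 1.07 for Eif2ak2, -2.58 to 0.69 for Adar, -0.74 to 0.88 for Irf1, -3.32 to 0.20 for Irf7, -0.79 to 0.54 for Irf8, -2.87 to 0.15 for Stat2, -0.22 to 0.52 for Psmb8, -0.85 to 1.12 for Psmb9, -0.76 to 1.28 for Psme2, -0.77 to 0.64 for Tap1. For TEG3 over OEC Ep, leaving out each array in turn gave log2 differences of -0.0096 to 2.28 for Rsad2, -2.02 to 0.14 for Mx2, -1.08 to 0.45 for Oas1a, -0.26 to 1.21 for Ifitm3, -0.47 to 0.99 for Eif2ak2, -0.54 to 1.16 for Adar, -0.15 to 1.64 for Irf1, -1.19 to 2.16 for Irf7, -0.70 to 0.82 for Stat2, -0.33 to 2.72 for Psmb9. For OEC Lp over OEC Ep, leaving out each array in turn gave log2 differences of -1.69 to 1.71 for Mx1, -0.39 to 3.00 for Mx2, -0.81 to 1.28 for Eif2ak2, -0.38 to 2.89 for Adar, -0.22 to 1.57 for Irf1, -0.091 to 2.93 for Stat2, -1.88 to 0.35 for Gbp2, -0.46 to 2.59 for Psmb9, -0.58 to 0.49 for Psme1, -0.10 to 2.35 for Psme2, -0.17 to 0.14 for B2m. With 1 array per population and type, the signal over background of dim genes limits U34A most, where 5 of the 19 genes had a probe set at the floor in TEG3, 0 in OEC Lp and 6 in OEC Ep.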

Other observations

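The class II genes, which present peptides taken up from outside the cell and are known above all from macrophages and other antigen-presenting cells, were counted as a list. On U34A, 8 were above the floor, and 0 were 2-fold higher and 3 lower both in TEG3 against OEC Ep (median log2 ratio -0.79, all genes 12.9% lower) and in OEC Lp against OEC Ep (-0.84, all genes 10.1% lower). RT1-DMb, a chain of the protein that loads class II, was at the floor in TEG3 and OEC Lp against 639.98 in OEC Ep on U34A. On RAE2.0 it was 240.00 in TEG3, 823 in OEC Lp and 725 in OEC Ep. On that type 5 class II genes were above the floor and 0 differed by 2-fold between OEC Lp and OEC Ep. The macrophage markers were at least 2-fold lower than in OEC Ep for 8 of 10 genes in TEG3 and 6 of 10 in OEC Lp on U34A, and for 18 of 19 in each on RAE2.0, and their part in the class II signals was not tested. The summed signal of 7 lymphocyte markers was 1569.98 in TEG3, 1752 in OEC Lp and 1567 in OEC Ep on U34A, and 1932 in TEG3, 1417 in OEC Lp and 1657 in OEC Ep on RAE2.0.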
